A study of Mus musculus with 9 samples.

Results

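The MS4A genes described here are Ms4a1, Ms4a4b, Ms4a4c, Ms4a6b, Ms4a6c, Ms4a6d and Ms4a7, 7 of the 18193 mouse genes that had a probe set of their own on the array. They were chosen by measured values of the same arrays and by family name, and every probe set whose platform symbol was exactly one of them was taken, which gave 15 of the 45037 probe sets tested. The lymphoma against wild-type differences of these 7 genes are therefore descriptions: no p-value is given for any of them, and the number called by the fit over all probe sets is printed only beside the background share. The study compared 5 splenic lymphomas of Sca1-MALT1 transgenic mice with 4 spleens of healthy wild-type mice, on frozen tissue and with 1 Affymetrix array per sample. Sca1-MALT1 names a transgene that expresses MALT1 under Sca1 control, and Sca1 is an antigen of blood stem and progenitor cells. MALT1 is a protease and scaffold that links antigen receptors to NF-kB. No source used here gives the age, sex or strain of the mice. Whole tissue was measured, so fewer cells of a type and less RNA per cell cannot be told apart. The labels give sample numbers without naming animals, and p-values therefore cover only the spread between these 9 samples, which may be technical.

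MS4A proteins cross the membrane several times and sit in clusters beside receptors, whose signalling several of them tune. Ms4a1 encodes CD20, the surface protein of B cells that therapeutic antibodies bind. Ms4a4b and Ms4a6b are best known in T cells, where their proteins associate with the costimulatory receptor GITR, and Ms4a4c is a close relative of Ms4a4b. Ms4a6c, Ms4a6d and Ms4a7 are known mainly from monocytes and macrophages. The family therefore has members known from lymphocytes and members known from phagocytes. Where in the spleen they are expressed was not measured here.

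With 9 arrays, precision is limited throughout. B cell genes were strongly detected in both groups, with Cd79b, a chain of the B cell receptor complex, at a mean log2 level of 13.46 in wild-type spleens and 13.11 in lymphomas. The 3 Malt1 probe sets were all lower in lymphoma and none was called (largest difference -0.74, SE 0.37, limma adjusted p = 0.417). On the brightest of them the groups did not overlap, with a difference of -0.59 (SE 0.16, limma adjusted p = 0.141). No source used here says whether these probe sets read the transgene, so the labels cannot be checked with them. Lymphomas 1 and 2 stood apart from the other lymphomas: the mean of 8 measured erythroid genes was 4.18 and 3.93 log2 units above the wild-type mean there and between -1.30 and 1.17 in lymphomas 3 to 5, against -0.46 to 1.31 in the wild-type spleens. For the 7 genes and the marker lists that rest on these arrays, values without them are given too.

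The 7 genes lie in 1 cluster on chromosome 19. In the RefSeq order of assembly GRCm38.p6, Ms4a1 is followed by Ms4a7, Ms4a4c, Ms4a4b, Ms4a6c, Ms4a6b and Ms4a6d, with other MS4A genes between. RefSeq promoter windows, which run from 250 bases before a gene's start to 50 after it, were matched for 5 of the 7 genes. Ms4a1 and Ms4a6d were not matched. The windows of Ms4a4c, Ms4a4b, Ms4a6c and Ms4a6b are printed because they form related pairs. The genes of one of those pairs, Ms4a6c and Ms4a6b, also had differences of opposite sign on their brightest probe sets with all arrays. Capitals mark the letters GAGGAA (the core bound by PU.1, a factor of B cells and myeloid cells) and GAAANNGAA (of the type bound by interferon regulatory factors), searched on both strands.
Ms4a4c promoter, chr19:11407411-11407710, plus strand: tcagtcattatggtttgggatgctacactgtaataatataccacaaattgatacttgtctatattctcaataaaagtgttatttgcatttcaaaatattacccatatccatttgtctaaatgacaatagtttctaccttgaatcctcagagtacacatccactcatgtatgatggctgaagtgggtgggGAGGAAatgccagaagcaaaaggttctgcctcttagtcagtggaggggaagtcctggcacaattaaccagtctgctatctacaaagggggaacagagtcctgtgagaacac
Ms4a4b promoter, chr19:11443308-11443607, plus strand: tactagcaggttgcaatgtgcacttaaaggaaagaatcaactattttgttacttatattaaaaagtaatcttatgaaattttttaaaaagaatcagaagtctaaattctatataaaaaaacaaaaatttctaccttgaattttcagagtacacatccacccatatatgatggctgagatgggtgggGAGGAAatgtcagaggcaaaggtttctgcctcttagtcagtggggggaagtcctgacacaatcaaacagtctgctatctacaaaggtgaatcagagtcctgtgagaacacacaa
Ms4a6c promoter, chr19:11469118-11469417, plus strand: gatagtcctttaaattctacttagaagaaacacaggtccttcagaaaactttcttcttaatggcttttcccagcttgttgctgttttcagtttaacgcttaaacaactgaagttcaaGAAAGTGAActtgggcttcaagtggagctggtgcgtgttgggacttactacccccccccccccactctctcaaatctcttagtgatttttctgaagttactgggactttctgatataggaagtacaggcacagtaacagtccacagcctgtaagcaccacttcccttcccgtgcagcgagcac
Ms4a6b promoter, chr19:11518309-11518608, plus strand: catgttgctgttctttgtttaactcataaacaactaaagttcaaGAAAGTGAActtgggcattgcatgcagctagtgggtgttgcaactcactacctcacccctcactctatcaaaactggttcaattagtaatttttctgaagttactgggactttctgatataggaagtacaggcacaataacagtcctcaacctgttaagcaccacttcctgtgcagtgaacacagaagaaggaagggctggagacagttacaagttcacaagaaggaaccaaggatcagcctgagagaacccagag

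The Ms4a4c and Ms4a4b windows matched at 228 of 282 aligned bases (80.9%), and both hold GAGGAA at nearly the same place, from base 190 of the Ms4a4c window and from base 187 of the Ms4a4b window. The Ms4a6c and Ms4a6b windows matched at 189 of 220 aligned bases (85.9%) and share an unbroken run of 48 bases. Both hold GAAAGTGAA, from base 118 in Ms4a6c and from base 45 in Ms4a6b. The 2 Ms4a7 windows, on the minus strand at chr19:11336097-11336396 and chr19:11334646-11334945, each hold 1 match to GAAANNGAA, and the first also holds GAGGAA. The letters GAGGAA occur in 28.3% of the 32851 promoter windows of that table and GAAANNGAA in 8.56%, so a match of either alone is common. A kappa B consensus, present in 4.51% of all windows, had no match in these 6. The motifs were chosen with earlier results of these data known, and a match is a description of letters and not a site of binding.

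Ms4a1, the B-cell gene of the family, had overlapping values in the groups. Its brighter probe set had log2 values of 13.90, 13.87, 13.83 and 13.74 in wild-type spleens 1 to 4 and of 13.02, 14.17, 13.85, 13.65 and 13.39 in lymphomas 1 to 5. The lymphomas spread on both sides of the wild-type spleens, with lymphoma 2 above all of them and lymphomas 1, 4 and 5 below all of them. The mean was 13.83 ± 0.07 (SD, n = 4) in wild-type spleens and 13.62 ± 0.44 (SD, n = 5) in lymphomas, a difference of -0.22 with an SE of 0.20 and a 95% interval from -0.66 to 0.23. The other probe set ordered the lymphomas the same way, with 11.92 in lymphoma 1 as the lowest and 13.44 in lymphoma 2 as the highest, and its difference was -0.23 (SE 0.26). The groups overlapped on both. In the limma fit 6267 of all 45037 probe sets had an unadjusted p below 0.05, the background for each such count in the lists. Of the 11 measured B cell markers beside Ms4a1, limma called 0 (4 with an unadjusted p below 0.05), and all 11 had negative differences with a median of -0.51. The largest were those of Fcer2a, which encodes the IgE receptor CD23 (-1.77, limma adjusted p = 0.234), and of Cr2, which encodes the complement receptor CD21 (-1.25, adjusted p = 0.124). Without lymphomas 1 and 2 the median was -0.25, and these genes were the 2 called, both lower (-0.87, adjusted p = 0.0202, and -0.86, adjusted p = 0.00483, by limma).

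Ms4a4b and Ms4a6b, the genes best known in T cells, were low in lymphomas 1 and 2 and near the wild-type level in lymphomas 3 to 5. On its brighter probe set Ms4a4b had log2 values of 12.86, 12.93, 13.09 and 13.08 in wild-type spleens 1 to 4 and of 11.74, 11.48, 13.36, 12.99 and 12.97 in lymphomas 1 to 5. Lymphomas 1 and 2 lay more than 1 log2 unit below every wild-type spleen, and the other 3 lay within the wild-type range or above it. The group means were 12.99 ± 0.11 (SD, n = 4) and 12.51 ± 0.84 (SD, n = 5), a difference of -0.48 with an SE of 0.37. Without lymphomas 1 and 2 the difference was 0.12. The dimmer probe set had its 2 lowest values in the same lymphomas, 7.06 and 6.36, against 7.95 to 8.60 in wild-type spleens. Its difference was -0.39 (SE 0.48), and 0.37 without them.

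Ms4a6b on its brighter probe set gave 12.35, 12.45, 12.54 and 12.58 in wild-type spleens and 11.57, 11.52, 12.82, 12.52 and 12.58 in the lymphomas. The groups overlapped, with lymphomas 1 and 2 again below the rest. The difference was -0.28 (SE 0.27), and 0.16 without lymphomas 1 and 2. With the array's 18S control level as a covariate, the differences of Ms4a4b and Ms4a6b also turned positive, at 0.28 and 0.24. The second probe set had 9.79 and 9.40 in lymphomas 1 and 2, against 10.93 to 11.36 in wild-type spleens and 10.53 to 11.56 in the other lymphomas. Its difference was -0.74 (SE 0.39), and -0.17 without lymphomas 1 and 2. T cell markers moved in the same arrays: the mean of 12 measured T cell genes differed from the wild-type mean by -1.24 in lymphoma 1 and -1.19 in lymphoma 2, while lymphomas 3 to 5 ranged from -0.22 to 0.09. All 12 had negative group differences (median -0.36), limma called 0 (2 with an unadjusted p below 0.05), and the largest were those of Cd8b1 (-1.69, limma adjusted p = 0.159) and Cd8a (from a mean of 10.23 to 9.23, adjusted p = 0.244), the chains of the CD8 co-receptor. The median was 0.04 without lymphomas 1 and 2, 8 of the 12 differences were positive, and 0 were called. The part of the T cell level, or of the erythroid level that was also high in lymphomas 1 and 2, in the Ms4a4b and Ms4a6b values was not tested.

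Ms4a4c was lower in every lymphoma than in any wild-type spleen. On the brighter probe set the wild-type spleens had log2 values of 11.97, 12.05, 12.02 and 11.92, and lymphomas 1 to 5 had 10.56, 10.26, 11.75, 11.17 and 11.24. Lymphoma 3 came closest to the wild-type spleens. The difference was -0.99 (SE 0.26, 95% interval -1.58 to -0.41), or 1.99-fold lower, with SDs of 0.06 (n = 4) and 0.59 (n = 5). The other probe set gave 11.50, 11.59, 11.83 and 11.32 in wild-type spleens and 9.82, 9.69, 11.25, 10.70 and 10.91 in lymphomas, again with no overlap and 2.12-fold lower on average. Lymphomas 1 and 2 were the lowest on both. Without them the difference on the brighter probe set was -0.60, and with the 18S level as a covariate it was -0.40. Neither probe set was called. The array's design marks both as probe sets that can read more than 1 transcript, and Ms4a4c has the near relative Ms4a4b, so how far these signals are specific to Ms4a4c is uncertain. The brightest Ms4a6d probe set carries the same mark.

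**Figure D1:**
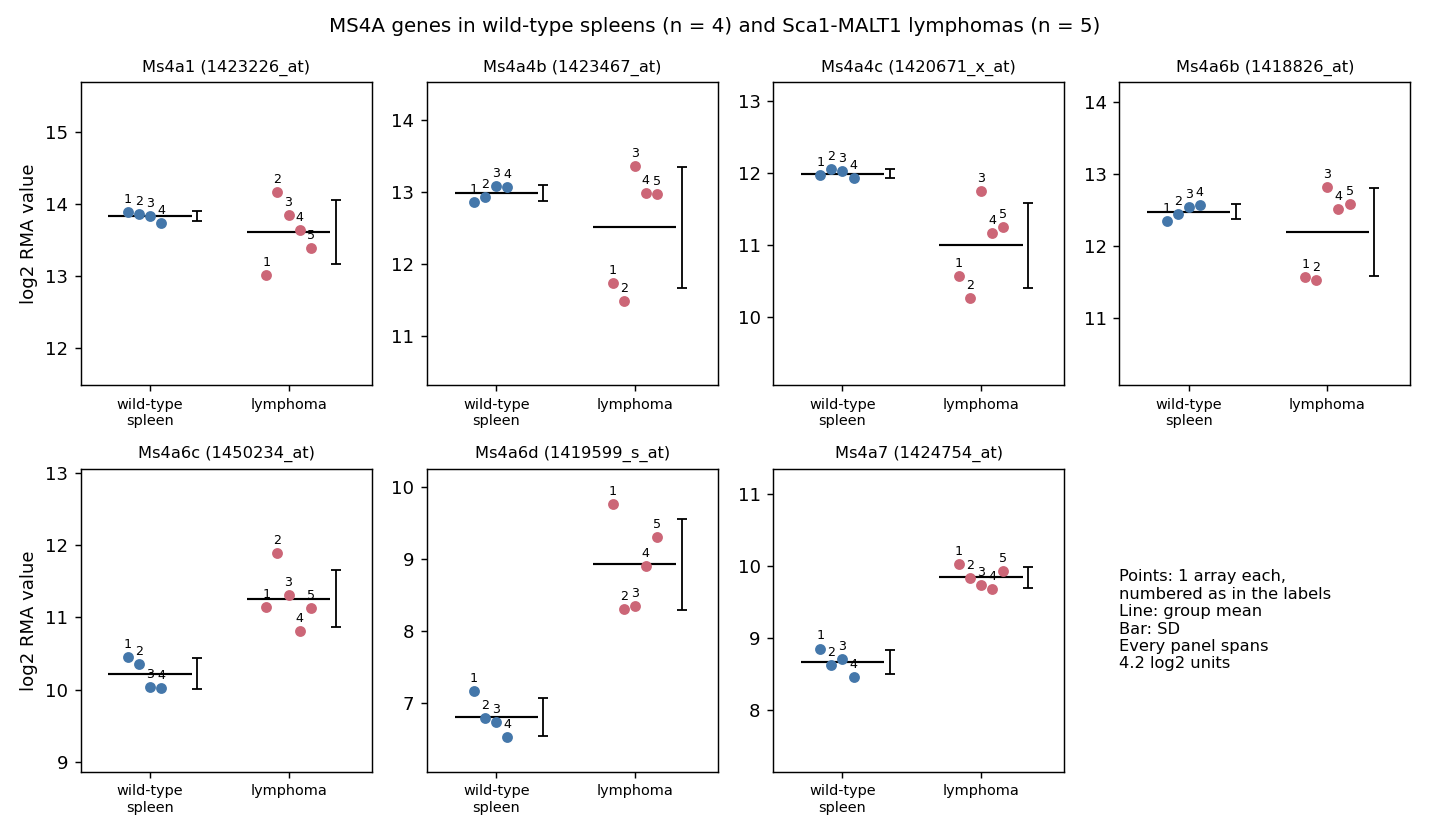
Log2 RMA values (y axes) of the brightest probe set of each gene, 1 panel per gene, in 4 wild-type spleens (blue) and 5 lymphomas (red). Points are arrays numbered as in the labels, lines are group means and bars are SDs; every panel spans 4.2 log2 units. The groups do not overlap for Ms4a4c, Ms4a6c, Ms4a6d and Ms4a7, and lymphomas 1 and 2 are the lowest points for Ms4a4b, Ms4a4c and Ms4a6b.

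Ms4a6d, a macrophage gene, had the largest difference of the family. On the brightest of its 3 probe sets the wild-type spleens had log2 values of 7.17, 6.79, 6.74 and 6.53, and lymphomas 1 to 5 had 9.76, 8.30, 8.35, 8.90 and 9.31. The lowest lymphoma lay more than 1 log2 unit above the highest wild-type spleen. The mean went from 6.81 ± 0.27 (SD, n = 4) to 8.93 ± 0.63 (SD, n = 5), a difference of 2.12 (SE 0.29, 95% interval 1.46 to 2.77) or 4.33-fold. The second probe set gave 5.51, 5.45, 4.98 and 5.14 in wild-type spleens and 8.02, 6.74, 6.82, 7.17 and 7.84 in lymphomas, a difference of 2.05. This probe set was dim in wild-type spleens, below 6.5 in each, and RMA compresses differences there, so no fold is given for it. Both ordered lymphomas 1, 5 and 4 above 2 and 3. The third probe set stayed between 3.25 and 3.46 on all arrays, near the bottom of the array's scale, with a difference of 0.03. On the brightest probe sets the order of the 5 lymphomas in Ms4a1, lymphoma 1 lowest and then 5, 4, 3 and 2, was the reverse of their order in Ms4a6d. This was picked out after the values were seen. With each group's mean taken off, their Pearson r was -0.86 over the 9 arrays and -0.60 over the 7 without lymphomas 1 and 2. For the other Ms4a1 probe set it was -0.77, then -0.18.

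Ms4a7, a gene of tissue macrophages, had, on its brighter probe set, lymphoma values closer together than the brightest probe set of any other of the 7 genes. That probe set gave 8.86, 8.63, 8.71 and 8.46 in wild-type spleens and 10.03, 9.83, 9.74, 9.68 and 9.93 in lymphomas 1 to 5. All 5 lymphomas lay between 9.68 and 10.03, above every wild-type spleen. The difference was 1.18 (SE 0.10, 95% interval 0.95 to 1.41), or 2.26-fold, from 8.66 ± 0.17 (SD, n = 4) to 9.84 ± 0.14 (SD, n = 5). The dim one ranged from 3.73 to 3.88 in wild-type spleens and from 3.73 to 4.44 in lymphomas, and there the groups overlapped.

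The 2 probe sets of Ms4a6c, a monocyte and macrophage gene, disagreed in sign over all 5 lymphomas, which no other gene of the 7 did, and had the same sign without lymphomas 1 and 2. Without those arrays the 2 Ms4a6b probe sets had opposite signs (0.16 and -0.17). The dimmest Ms4a6d probe set (-0.0050) was then also opposite in sign to the others of that gene. On the brighter one the wild-type spleens had log2 values of 10.45, 10.35, 10.04 and 10.02 and the lymphomas 11.15, 11.89, 11.32, 10.81 and 11.14. All lymphomas were higher, by 1.05 on average (SE 0.20, 95% interval 0.60 to 1.49) or 2.06-fold, though this probe set was not called. On the other one the wild-type spleens had 9.57, 9.77, 9.73 and 9.78, and the lymphomas had 8.38, 8.39, 10.17, 10.12 and 9.81. Here lymphomas 1 and 2 were low and the other 3 were above every wild-type spleen, for a difference of -0.34 (SE 0.40). Without lymphomas 1 and 2 it was 0.32 here and 0.87 on the brighter probe set. After each group's mean was taken off, the dimmer Ms4a6c probe set followed the T-cell genes across the 9 arrays, with a Pearson r of 0.98 with the brighter Ms4a6b probe set and -0.56 with the other Ms4a6c probe set. Over the 7 arrays without lymphomas 1 and 2 these were 0.55 and -0.26. For the 2 Ms4a4b probe sets r was 0.91 over the 9 arrays and -0.58 over the 7, so such disagreement was not particular to Ms4a6c. The points share arrays and normalization, and which transcript the dimmer probe set reads was not tested.

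In all, 3 of the 15 probe sets were called by limma at an adjusted p under 0.05, the 2 Ms4a6d probe sets with the highest means and the brighter one of Ms4a7, all higher in lymphoma. Over all 45037 probe sets, 0.486% were called, 0.251% higher and 0.235% lower, a total of 219. The groups did not overlap on 6 of the 15 (4 higher, 2 lower), against 6.47% of all probe sets. Since the genes were chosen with this contrast known, nothing is read from these shares. The call count of 3 is not stable: it was 0 without wild-type spleen 2 or 3, and 1 without wild-type spleen 1, wild-type spleen 4 or lymphoma 5, with Ms4a7 left each time. It was also 0 with unequal variances or the 18S level as a covariate. Without wild-type spleen 2 or 3, and in these 2 settings, the count over all 45037 probe sets was 0 as well. Lymphomas 1 and 2 were the 2 lowest of the 9 arrays on 7 of the 15 probe sets and on 11.9% of all probe sets.

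Set against Ms4a1 array by array on the brightest probe sets, Ms4a6d, Ms4a7 and Ms4a6c were higher in all 5 lymphomas than in any wild-type spleen. The Ms4a6d value minus the Ms4a1 value changed by 2.33 (SE 0.54), a 5.04-fold shift, and by lymphoma it lay 3.77, 1.16, 1.52, 2.28 and 2.94 above the wild-type mean of that quantity. Lymphoma 2, where Ms4a1 was highest, had the smallest shift. Because the Ms4a1 value is subtracted, a high Ms4a1 lowers this quantity by construction, so no link between the genes is read from it. The same quantity changed by 1.40 (SE 0.28, 2.63-fold) for Ms4a7 and by 1.26 (SE 0.20, 2.40-fold) for Ms4a6c. The Ms4a6c change uses the brighter of 2 probe sets of opposite sign, and was 0.58 with the mean over probe sets. For Ms4a4c the value minus that of Ms4a1 changed by -0.77 (SE 0.38), 1.71-fold down and below every wild-type spleen in all 5 lymphomas. For Ms4a4b (-0.26, SE 0.48) and Ms4a6b (-0.06, SE 0.37) the change was smaller than its SE. Without lymphomas 1 and 2 these last changes were 0.32 and 0.37, and those of Ms4a4c, Ms4a6c, Ms4a6d and Ms4a7 were -0.40, 1.08, 2.25 and 1.32. With the 18S level as a covariate the changes of Ms4a4b and Ms4a6b were 0.66 and 0.63 and that of Ms4a4c was -0.021, so its shift relative to Ms4a1 was lost.

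**Figure D2:**
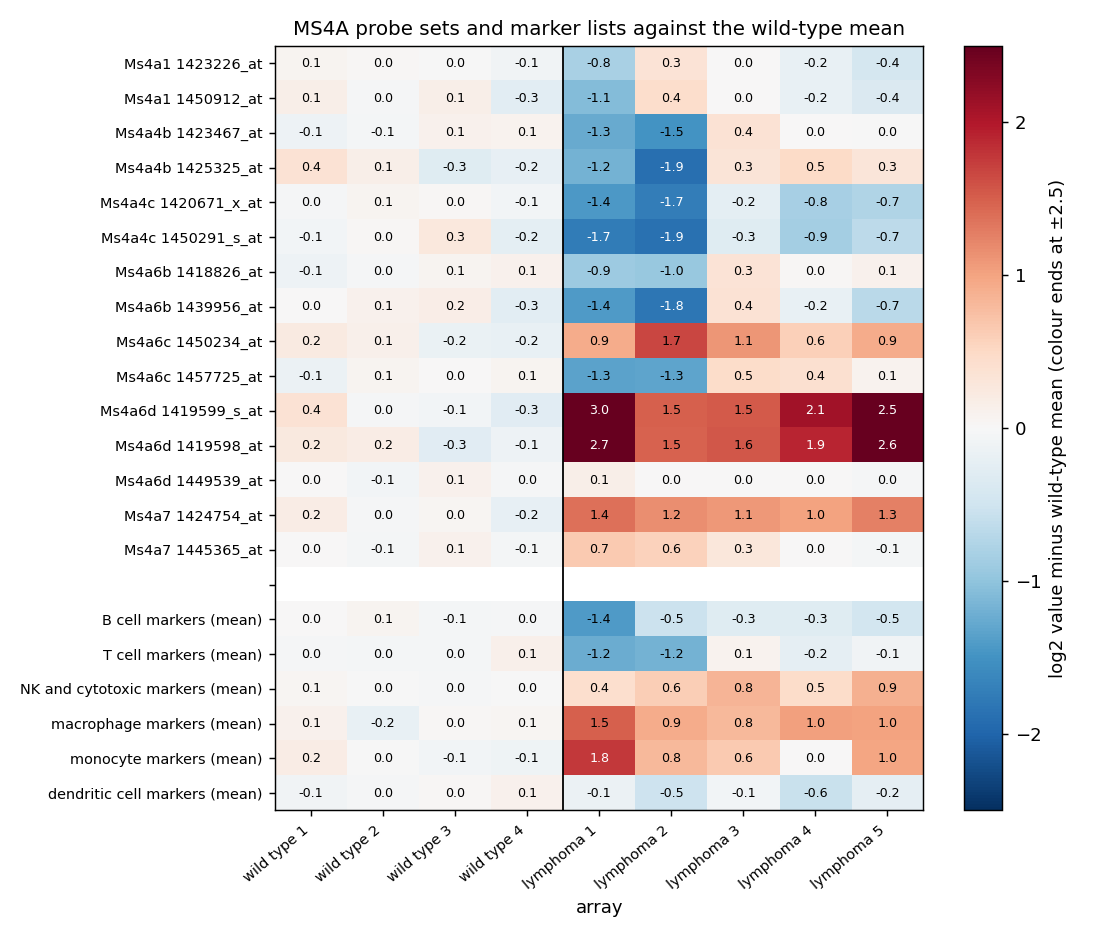
Log2 value minus the wild-type mean (colour, ending at ±2.5) for the 15 MS4A probe sets and for the mean of 6 cell type marker lists (rows) in each of the 9 arrays (columns). The Ms4a6d and Ms4a7 values are above the wild-type mean in all 5 lymphomas on their brightest probe sets, while those of Ms4a4b, Ms4a6b and the T cell markers are below it chiefly in lymphomas 1 and 2.

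The mean of the macrophage markers, like Ms4a6d and Ms4a7 on their brightest probe sets, was above every wild-type spleen in all 5 lymphomas. Of 18 measured macrophage genes, 8 rose and 1 fell, 16 had positive differences, and the median difference was 1.04, against 0.00 over all 18193 genes, of which 0.605% were called. Among the called genes the largest rises were those of the complement C1q chains C1qb (2.40, limma adjusted p = 0.0129), C1qc (2.34, adjusted p = 0.00993) and C1qa (1.93, adjusted p = 0.00993). Cd5l, a secreted protein of tissue macrophages, had a larger difference (2.58) and was not called. When lymphomas 1 and 2 were left out, 11 rose and 1 fell, with Cd5l among those that rose. The gene that fell was Marco, which marginal zone macrophages use as a scavenger receptor (-1.64, limma adjusted p = 0.0148). Marco and Cd5l were named after their values were seen. Of all 45037 probe sets 0 were called without wild-type spleen 2 or 3, with unequal variances or with the 18S covariate. No call in the marker and partner lists, here or below, therefore held in those settings. The mean of the macrophage list lay 1.49, 0.92, 0.81, 1.02 and 1.01 log2 units above the wild-type mean in lymphomas 1 to 5, with wild-type spleens between -0.19 and 0.11. Lymphoma 1 was the highest in this list, in Ms4a6d and in Ms4a7. It was also the highest lymphoma in the monocyte (1.77), neutrophil and precursor (5.49), mast cell and basophil (0.87), erythroid (4.18) and interferon-stimulated (0.52) lists. The NK and cytotoxic list mean was likewise above every wild-type spleen in all 5 lymphomas (0.41 to 0.89, against at most 0.05). The part of the macrophage level in the Ms4a6d and Ms4a7 values was not tested.

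Other myeloid lists held fewer called genes. Of 10 measured monocyte genes, 1 rose, the endotoxin co-receptor gene Cd14 (from a mean of 8.04 to 9.24, limma adjusted p = 0.0320), with a median of 0.65. All 11 measured neutrophil and precursor genes had positive differences with a median of 2.58. Limma called 0 of them (7 with an unadjusted p below 0.05, against 6267 of all 45037 probe sets). S100a9 (3.41, limma adjusted p = 0.186) and Lcn2 (3.15, adjusted p = 0.283), which encode antimicrobial proteins of neutrophils, were the largest. The median was 1.36 without lymphomas 1 and 2, and Mmp8, a neutrophil collagenase gene, was then called (0.56, limma adjusted p = 0.0364). The mean of that list was 5.49 above the wild-type mean in lymphoma 1 and 0.06 in lymphoma 4, while Ms4a7 was 10.03 and 9.68 in the same arrays. All 7 measured dendritic cell genes had negative differences (median -0.22) and limma called 0 (3 with an unadjusted p below 0.05), with Siglech, a receptor of plasmacytoid dendritic cells (-0.58, adjusted p = 0.104), and Zbtb46, a factor of conventional ones (-0.47, adjusted p = 0.307), as the largest.

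The remaining lists held 1 called gene. Of 9 measured NK and cytotoxic genes, Gzmk, a granule protease, rose from a mean of 7.17 to 10.17 (limma adjusted p = 0.0107), and the list's median was 0.49. No gene was called among 8 mast cell and basophil genes (median 0.25, with Hdc at 0.46 and Mcpt8 at 0.45), among 8 plasma cell genes (median 0.52, with Jchain at 0.72 and Sdc1 at 0.67) or among 8 erythroid genes (median 1.92, with Rhag at 2.36 and Alas2 at 2.13). None of 9 interferon-stimulated genes was called either (median -0.19), with Rsad2 at 1.83 and Oasl2 at 0.59. At an unadjusted p under 0.05 these 4 lists held 0, 2, 0 and 1 genes, against 6267 of all 45037 probe sets. The erythroid median was 0.22 without lymphomas 1 and 2, with Rhag at 0.31 and Alas2 at 0.38. With all arrays the adjusted p-values of the 8 examples lay between 0.353 and 0.583.

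Genes for proteins reported to associate with MS4A proteins mostly did not pass the test. Of 11 measured, 1 rose: Clec7a, which encodes the fungal sugar receptor Dectin-1, known to pair with the human macrophage protein MS4A4A. It had log2 values of 9.58, 9.54, 9.11 and 8.92 in wild-type spleens and of 10.23, 10.23, 10.43, 10.22 and 10.51 in the lymphomas. Every lymphoma was above every wild-type spleen, by 1.04 on average (SE 0.15, limma adjusted p = 0.0258). The other 10, among them the B cell receptor chains and the adaptor genes Tyrobp and Fcer1g, differed by -0.62 to 0.79, and the median of the 11 was 0.24. At an unadjusted limma p under 0.05 the list held 5 of the 11, against 6267 of all 45037 probe sets. Among the 10 not called, the groups did not overlap for Cd40 (-0.62), Fcer1g (0.79), Itgb1 (0.58) and Tyrobp (0.39), and overlapped for the rest. Over all probe sets 6.47% did not overlap. Fcer1g was called as well when lymphomas 1 and 2 were left out (0.67, limma adjusted p = 0.0114), as were Eomes among the cytotoxic genes (1.03, adjusted p = 0.00482) and Cx3cr1 among the monocyte genes (1.02, adjusted p = 0.00914).

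Of the other MS4A family genes, 12 of 18 listed were measured, on 15 probe sets, and 1 probe set was called, that of Ms4a4d. Ms4a4d, a relative of Ms4a4b that lies next to Ms4a6d, had log2 values of 9.36, 9.49, 9.59 and 9.18 in wild-type spleens and of 10.42, 10.22, 10.39, 10.34 and 10.73 in lymphomas. The groups did not overlap, and the lymphomas were higher by 1.01 (SE 0.12, limma adjusted p = 0.0171). Over 20 alternatives its difference stayed between 0.94 and 1.08 and its adjusted p ranged from 0.00508 to 0.150. The call was lost in 7 of them, among them each that left out a wild-type spleen, with adjusted p-values of 0.0608, 0.0802, 0.0639 and 0.0535 without wild-type spleens 1 to 4.

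Ms4a3, a gene of granulocyte precursors, had 6.05, 6.17, 5.81 and 6.16 in wild-type spleens and 10.85, 6.83, 6.38, 6.19 and 7.18 in lymphomas 1 to 5. Lymphoma 1 alone set most of its difference of 1.44 (SE 0.83, limma adjusted p = 0.482), which was 0.60 without that array. That lymphoma also had the highest neutrophil and precursor list mean. Ms4a8a lay between 5.84 and 6.37 in wild-type spleens and above them in all lymphomas, at most at 7.29 in lymphoma 1, a difference of 0.50 (SE 0.19, adjusted p = 0.282). Ms4a2, the beta chain of the high-affinity IgE receptor of mast cells, differed by 0.22 (adjusted p = 0.699). Ms4a10, Ms4a13, Ms4a15, Ms4a18, Ms4a19 and Ms4a20 differed by -0.11 to 0.02, and the related genes Tmem176a and Tmem176b by 0.13 and 0.14, with none called. Of the 12 genes, 8 were below a log2 level of 6.5 in every wild-type spleen. Ms4a4a, Ms4a5, Ms4a6e, Ms4a9, Ms4a12 and Ms4a14 were not analysed here.

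On the brightest probe sets and with all arrays, genes of positive and negative difference lay side by side within the cluster. Between Ms4a10 and Ms4a3 the RefSeq order holds 22 protein-coding genes, 21 of them MS4A genes, and 18 were measured. Ms4a6c (1.05) lies between Ms4a4b (-0.48) and Ms4a6b (-0.28). Ms4a7 (1.18) lies between Ms4a1 (-0.22) and Ms4a4c (-0.99) but next to neither. Ms4a5 and Ms4a14, on the Ms4a1 side, and Ms4a4a, on the Ms4a4c side, were not measured. Ms4a4d (1.01) and Ms4a6d (2.12) follow Ms4a6b. The negative differences of Ms4a1, Ms4a4b and Ms4a6b had SEs of 0.20, 0.37 and 0.27. Without lymphomas 1 and 2 those of Ms4a4b and Ms4a6b were 0.12 and 0.16. The other Ms4a6c probe set differed by -0.34 with all arrays. Gm8369, the gene between Ms4a6c and Ms4a6b, differed by -0.14 (SE 0.42, limma adjusted p = 0.918). None of the 10 flanking genes, 5 on each side, was called. Those before the cluster (Tmem109, Prpf19, Zp1, Ptgdr2 and Ccdc86) differed by -0.03 to 0.15. After the cluster, Oosp2 differed by 1.13 (SE 0.34, adjusted p = 0.186) and Oosp1 by 1.21 (SE 0.35, adjusted p = 0.171), and Oosp3, Cblif and Mrpl16 by -0.03 to 0.11.

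**Figure D3:**
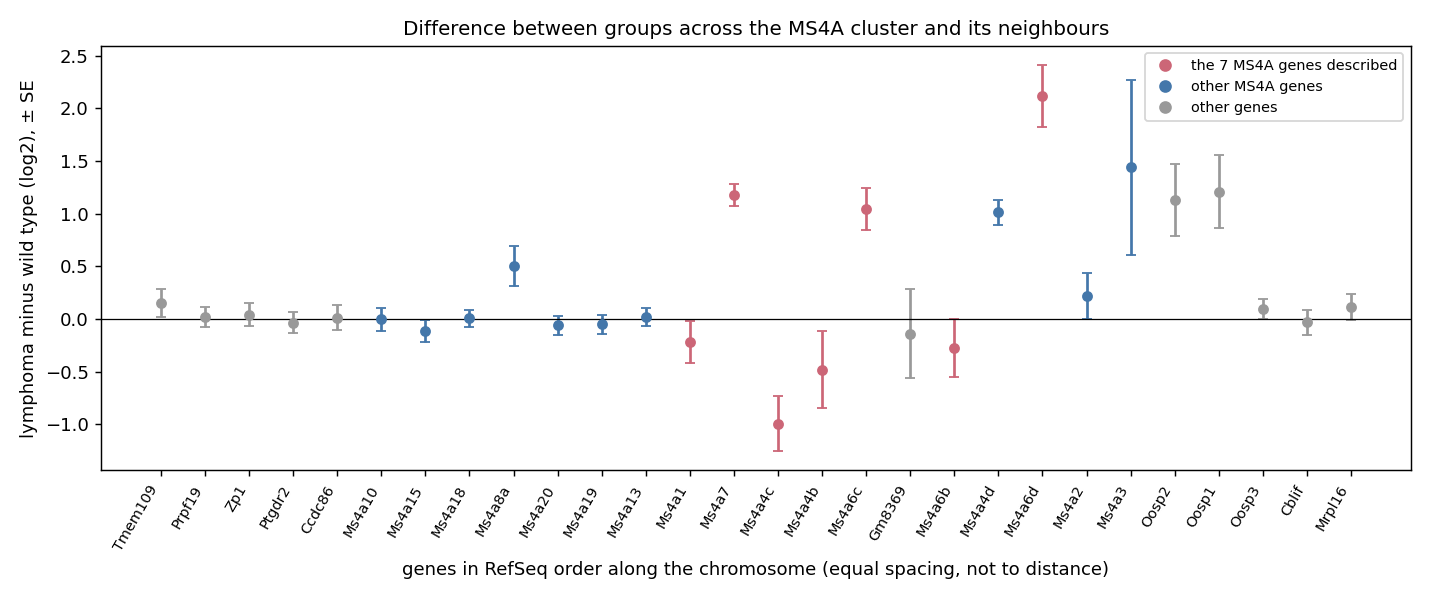
Lymphoma minus wild-type difference (log2, y axis) with its SE (bars) for the measured genes of the MS4A cluster and 5 genes on each side, in RefSeq order at equal spacing along the x axis. The 7 described genes (red) include both signs, with Ms4a4c and Ms4a4b adjacent and both negative, and run from -0.99 for Ms4a4c to 2.12 for Ms4a6d. The 5 genes before the cluster stay within 0.15 of 0. Of the 5 after it, Oosp2 and Oosp1 differ by 1.13 and 1.21 and the rest by -0.03 to 0.11.

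The genes whose values followed each MS4A gene most closely were sought among 10625 probe sets, by Pearson r over the 9 arrays after each group's mean was taken off. They are the highest of many and are given as descriptions, with r over 7 arrays without lymphomas 1 and 2 after each. For Ms4a1 they were Tmem163 (0.99, then 0.98) and Bcl2, the survival gene (0.99, then 0.95). For Ms4a4b they were Txk, a kinase gene of T cells (0.99, then 0.95), and Tspyl4 (0.99, then 0.87). For Ms4a6b they were Txk (0.99, then 0.94) and Fyn, another T cell kinase gene (0.99, then 0.83). For Ms4a4c they were Ptprc, which encodes the leukocyte antigen CD45 (0.98, then 0.87), and Cwc25 (0.98, then 0.87).

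The closest genes of the myeloid members were other ones. For the brighter Ms4a6c probe set they were Tnn (0.98, then 0.93) and Chrnb1 (0.97, then 0.94). For Ms4a6d they were Rfc1, a gene of DNA replication (0.99, then 0.98), and Tgfb1 (0.99, then 0.97), and for Ms4a7 they were Usp1 (0.94, then 0.98) and Snrnp40 (0.89, then 0.88). None of these genes was called between the groups.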

How the data were processed

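RNA of 4 wild-type spleens and 5 lymphomas was hybridised to 1 array per sample. The deposited values are on a log2 scale and were made by the authors with RMA, per the submitters' processing notes; no source used here gives its version or settings. RMA normalizes arrays to each other and compresses differences near background. Depth does not apply to arrays. Of 45101 probe sets, 64 controls were left out. Symbols came from the platform annotation, and each gene is represented by its brightest probe set (highest mean of the 9 arrays).

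The test was limma 3.58.1 under R 4.3.3, two-sided (lmFit, then eBayes) and without covariates, and p-values were adjusted by Benjamini-Hochberg over all 45037 probe sets with a threshold of 0.05. The code was tested on simulated data. Intervals are at 95%. Figures and sequence comparisons used Python 3.11.15, matplotlib 3.10.9 and Biopython 1.88.

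The genes, the marker and partner lists, the motifs and the tests were chosen with earlier results of these data known. Named were all probe sets of the 7 genes, every measured other MS4A gene, in each list up to 3 called genes or else the 2 with the largest absolute difference, the 2 genes most alike to each gene (mean of at least 6, SD of at least 0.2), and 5 genes on each side of the cluster. Cd79b, Malt1, Marco, Cd5l, Tyrobp, Fcer1g, Cd40 and Itgb1 were added outside that rule. Alternatives were other normalization, centring, dim filter, variance settings, array weights, the replicate block, 1 probe set per gene, the mean over probe sets, the 18S control as a covariate and leaving out arrays. The alternatives for other MS4A genes and for the marker lists were added after seeing the data, and Mmp8, Eomes and Cx3cr1 were named from one of them.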

Additional observations from a re-analysis of the deposited data

Results flagged for a closer look

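Of 60 groups of values looked at, 5 had 1 array far from the others of its group, and chance alone gives about 1 in 20. Ms4a3, the gene of granulocyte precursors, was 10.85 in lymphoma 1, against 7.18 in the next highest lymphoma. Ms4a8a was 7.29 in lymphoma 1, with the next lymphoma at 6.65. The dim Ms4a6d probe set was 3.46 in lymphoma 1 and 3.33 in the next lymphoma. Tmem176a on 1 of its probe sets was 10.88 in lymphoma 2, the lowest there, with the next lymphoma at 11.65. Ms4a18 was 4.54 in wild-type spleen 4, with the next wild-type spleen at 4.76.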

How the results depend on the processing

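The 91 recomputed differences of the 7 genes, and changes relative to Ms4a1, moved by less than 1 SD in 80 cases and by more in 11. With the 18S level as a covariate the differences were 0.28 for Ms4a4b, -0.40 for Ms4a4c and 0.24 for Ms4a6b, and relative to Ms4a1 0.66, -0.021 and 0.63; 18S was 12.15 to 12.37 in wild-type spleens and 12.18 to 13.37 in lymphomas, and the cause was not tested. With the mean over probe sets the differences were 0.35 for Ms4a6c, 1.40 for Ms4a6d, 0.74 for Ms4a7 and -0.51 for Ms4a6b, and relative to Ms4a1 -0.29 for Ms4a6b, 0.58 for Ms4a6c and 0.96 for Ms4a7, since dim or opposed probe sets enter that mean. Without 1 array the differences ranged from -0.36 to -0.07 (Ms4a1), -0.69 to -0.22 (Ms4a4b), -1.18 to -0.81 (Ms4a4c), -0.43 to -0.11 (Ms4a6b), 0.89 to 1.16 (Ms4a6c), 1.91 to 2.27 (Ms4a6d) and 1.11 to 1.24 (Ms4a7). Relative to Ms4a1 they ranged from -0.43 to 0.13 (Ms4a4b), -0.90 to -0.45 (Ms4a4c), -0.21 to 0.25 (Ms4a6b), 1.14 to 1.38 (Ms4a6c), 1.98 to 2.63 (Ms4a6d) and 1.2 to 1.54 (Ms4a7).

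The count of 219 called probe sets was 821 with array weights, 935 without lymphomas 1 and 2, 130 with 1 probe set per gene (of 18193 genes), 5 with the replicate block, and 0 by limma with the 18S covariate (3782 at an unadjusted p under 0.05) or with unequal variances (5463). It was 167 to 260 in the other 5 settings and 0 to 530 without 1 array, with 0 without wild-type spleen 2 or 3. The 3 called probe sets of the 7 genes were 0 with unequal variances, the replicate block and the 18S covariate, and 0 to 4 without 1 array. In those 3 settings 6, 7 and 4 of the 15 had an unadjusted p under 0.05, against 5463, 5223 and 3782 of all 45037. The genes were chosen with this contrast known, so nothing is read from these counts. The 1 called probe set of other family genes was 0 in the same settings, 2 without lymphomas 1 and 2 (Ms4a4d and Tmem176b) and 0 to 2 without 1 array. Ms4a4d differed by 1.01, 0.94 and 1.07 where its call was lost with unequal variances, the replicate block and the 18S covariate. Same-numbered arrays did not deviate together (r of 0.10, -0.19, 0.15 and -0.04). With so few pairs these values cannot decide whether the numbers pair samples, which the labels do not say. Lymphoma 5 has no partner in the replicate block. Low signal limits what the 2 dimmer Ms4a6d probe sets, the dimmer Ms4a7 probe set and most other family probe sets can show.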
